A study of Mus musculus with 6 samples.

Results

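The Notch receptors, ligands and targets described here are 10 genes of 1 signalling pathway, listed by name and role: the receptors Notch1, Notch2 and Notch3, the ligands Jag1, Jag2 and Dll1, and the targets Hes1, Hey1, Heyl and Nrarp. All 10 were found among the 23951 genes measured. RNA sequencing covered 3 untreated mouse melanoma lines in culture, with 2 libraries each. B16-F1, obtained from the American Type Culture Collection, has low metastatic potential. B16-F1R2 was established from a metastasis in a lymph node. B16-F1R2L came from a metastasis in the lung that itself descended from one in a lymph node. Both metastatic lines came from the same other laboratory, so that the line and its source cannot be told apart. The labels name no drug and no genetic change in any group, and each line stands for 1 derivation. The labels do not say if both libraries per line represent independent cultures, and all p-values measure only the spread between these libraries.

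Notch signalling passes between touching cells. A ligand of the Jagged or Delta-like family on one cell binds a Notch receptor on its neighbour, and the receptor is cut first by an ADAM protease and then by the γ-secretase complex. The freed intracellular domain enters the nucleus, binds the DNA-binding protein RBPJ with a Mastermind-like coactivator, and turns on genes of the Hes and Hey families, which encode repressors, and Nrarp, which encodes a feedback inhibitor. In the melanocyte lineage, Notch signalling is known for maintaining melanocyte stem cells and melanoblasts. In melanoma, Notch1 is known as a receptor that can promote growth.

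Values were FPKM, fragments per kilobase of transcript and 1000000 mapped reads, which are scaled by length and so allow levels of different genes to be set side by side. Only 5 of the 10 genes reached 1 FPKM in at least 2 of the 6 libraries and entered the test: Notch1, Notch2, Jag1, Jag2 and Hes1. Notch1 and Jag2 passed only through the 4 libraries of the metastatic lines, and Hes1 passed only through the 2 libraries of B16-F1, so that these 3 genes could enter only by being higher there. Jag1 passed through B16-F1 and B16-F1R2, with both B16-F1R2L libraries under 1 FPKM. Notch3, Dll1, Hey1, Heyl and Nrarp stayed below that level in every library. The estimated depth was 12200000 to 14300000 reads per library, and 10617 to 11168 genes per library reached 1 FPKM. All 7 melanocyte markers reached 1 FPKM in both libraries of every line, with a summed level of 15000 FPKM in B16-F1, 7910 to 8120 in B16-F1R2 and 8920 to 8930 in B16-F1R2L.

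The promoters of the genes whose levels differed between lines are shown first, for the 4 such genes with a window, with GC boxes, the binding motif of the Sp1 family, marked in them. This motif was chosen after the windows had been read. Promoter windows came from RefSeq (GRCm38.p6) and were placed in NCBIM37, the build of the expression data, by an exact match of the 250 bases before the gene start. Of the 10 genes, 7 had a window, and Hes1, Hey1 and Heyl had none in the table. Capitals mark GGGCGG or its reverse complement CCGCCC. The Notch1 run, at chr2:26359345-26359592 on the minus strand, lies inside the annotated span of the gene. The Notch2 run is chr3:97817211-97817460 on the plus strand, and the Jag2 run is chr12:114167707-114167956 on the minus strand. The Jag1 run, chr2:136942381-136942506 on the minus strand, leaves out the 124 bases of the window that the annotation gives as exon.
Notch1: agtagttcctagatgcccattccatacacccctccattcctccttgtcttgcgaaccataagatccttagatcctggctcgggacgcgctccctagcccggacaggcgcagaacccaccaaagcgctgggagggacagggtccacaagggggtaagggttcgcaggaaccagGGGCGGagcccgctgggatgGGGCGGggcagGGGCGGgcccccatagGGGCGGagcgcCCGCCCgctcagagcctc
Notch2: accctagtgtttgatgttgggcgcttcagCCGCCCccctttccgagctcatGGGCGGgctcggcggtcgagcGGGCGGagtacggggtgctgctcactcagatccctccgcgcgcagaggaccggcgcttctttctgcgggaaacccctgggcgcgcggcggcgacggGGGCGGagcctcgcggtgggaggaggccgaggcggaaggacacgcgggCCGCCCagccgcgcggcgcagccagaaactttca
Jag2: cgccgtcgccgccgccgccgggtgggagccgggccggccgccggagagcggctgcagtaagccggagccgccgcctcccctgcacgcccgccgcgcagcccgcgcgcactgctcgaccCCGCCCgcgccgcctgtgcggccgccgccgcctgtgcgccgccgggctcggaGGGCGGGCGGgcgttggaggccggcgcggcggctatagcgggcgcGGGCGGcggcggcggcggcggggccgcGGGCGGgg
Jag1: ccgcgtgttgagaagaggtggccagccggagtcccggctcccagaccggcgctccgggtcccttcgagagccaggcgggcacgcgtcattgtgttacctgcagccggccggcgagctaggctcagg

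The Notch1, Notch2 and Jag2 windows each held 5 GC boxes, 2 of those in Jag2 overlapping each other, and the Jag1 window held 0. Among the genes with no call, the Notch3 window held 4, the Nrarp window 2 and both Dll1 windows 0, so that the number of boxes did not separate the genes that differed between lines from those that did not. Of 32851 such windows over all genes, 32.7% held at least 1 GC box. The Jag2 run was 87.2% G or C, against a median of 52.4% over all windows. The core motif of RBPJ, TGGGAA on either strand, was found in none of the 8 windows of the 7 genes (2 of them belong to Dll1), and in 21.6% of all windows. CACGTG, the palindromic E-box, occurred among them only in the Nrarp window and in 6.02% of all windows. A match of letters is a description and not a binding site, and no match says only that these letters are not in these windows.

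Among the receptors, Notch2 was by far the most abundant in all 3 lines, and both Notch1 and Notch2 were higher in the metastatic lines than in the B16-F1 line. Under quantile normalization the Notch1 difference turned to -0.49 in B16-F1R2L and lost its call in B16-F1R2 (0.49, adjusted p = 0.0734), and Notch2 lost its call in B16-F1R2L (0.14, adjusted p = 0.161). Notch1 (chr2:26313423-26372183 in NCBIM37, minus strand, 34 exons in its longest transcript) encodes the receptor best known from T cell development and leukaemia. Its level was 0.435 and 0.605 FPKM in the B16-F1 pair, 1.42 and 1.40 in the B16-F1R2 pair, and 1.10 and 1.10 in that of B16-F1R2L. Both B16-F1 libraries were lowest, both B16-F1R2 libraries were highest, and no values of any 2 lines overlapped. The mean was 0.52 ± 0.12 FPKM in B16-F1 (SD, n = 2), 1.41 ± 0.00788 in B16-F1R2 (SD, n = 2) and 1.10 ± 0.00606 in B16-F1R2L (SD, n = 2). On the log2(FPKM + 0.1) scale, which understates changes of low genes, Notch1 was 1.30 higher in B16-F1R2 than in the B16-F1 line (95% interval 0.81 to 1.78), an adjusted p of 0.00204 in the limma model fitted over all 11379 genes that passed the filter. B16-F1R2L exceeded B16-F1 by 0.97 (0.48 to 1.45, limma adjusted p = 0.00699). With a pseudocount of 1 in place of 0.1 the differences were 0.67 and 0.47 and stayed called. These values correspond to about 52 and 70 reads in B16-F1 and to 140 to 190 in the other libraries. Further transcripts, 0610009E02Rik and Gm13568, overlap Notch1 exons on the opposite strand; the kit keeps strand, but whether the counting used it is not given in the sources used here.

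**Figure D1:**
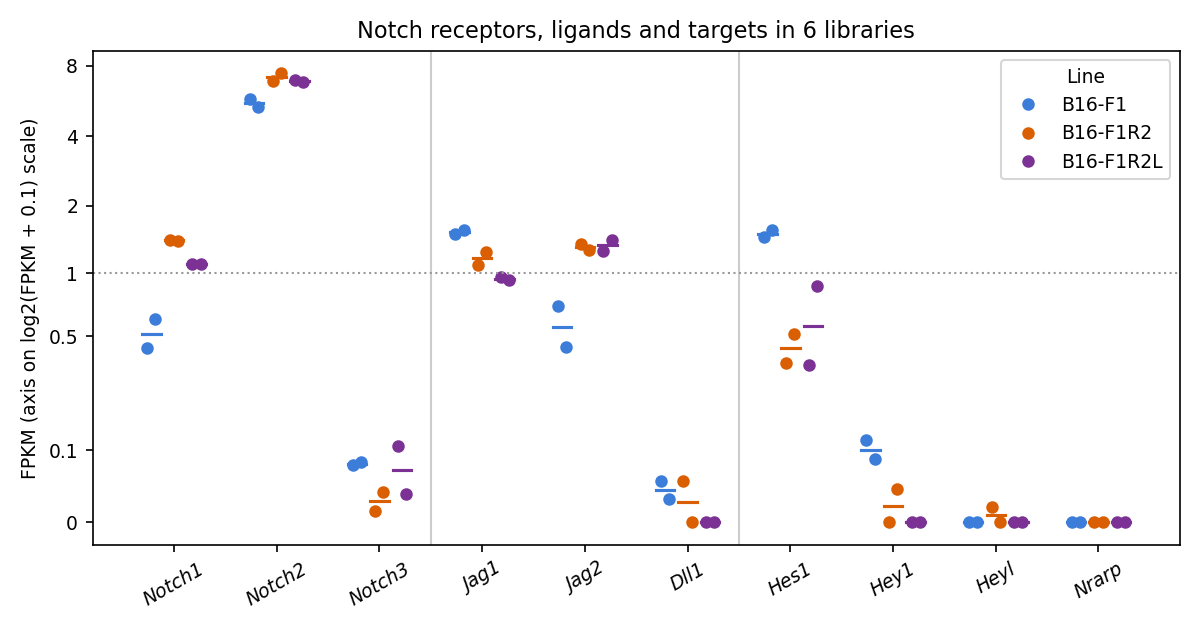
FPKM of the 10 Notch genes (y axis, on a log2(FPKM + 0.1) scale) in each of the 6 libraries, coloured by line; points are libraries, short bars are means of the log2 values, and the dotted line marks 1 FPKM. Notch2 lies between 5.36 and 7.43 FPKM, Notch1 and Jag2 are lowest in B16-F1, Hes1 and Jag1 are highest in B16-F1, and the other 5 genes stay near 0.

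Notch2 (chr3:97817461-97954290, plus strand, 34 exons) encodes a receptor known for roles in marginal zone B cells and in bile duct and kidney development. Its level was 5.77 and 5.36 FPKM in the B16-F1 pair, 6.91 and 7.43 in the B16-F1R2 pair, and 6.95 and 6.82 in that of B16-F1R2L. The 4 metastatic libraries all lay above both B16-F1 libraries, and those of the metastatic lines overlapped each other. The difference was small beside that of Notch1: 0.36 higher on the log2 scale in B16-F1R2 than in the B16-F1 line (0.17 to 0.55, limma adjusted p = 0.00874) and 0.30 higher in B16-F1R2L (0.11 to 0.49, limma adjusted p = 0.0168). Leaving out B16-F1 replicate 2 took both below the call, at 0.31 (adjusted p = 0.0574) and 0.25 (adjusted p = 0.097). B16-F1R2 replicate 2 (0.31, adjusted p = 0.0512) and either B16-F1R2L replicate (0.29 without replicate 1, adjusted p = 0.063, and 0.32 without replicate 2, adjusted p = 0.0541) likewise decided the call in their comparison.

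Notch3 (chr17:32257765-32303825, minus strand), a receptor known from vascular smooth muscle, was close to the detection limit. Its level was 0.0735 and 0.0782 FPKM in the B16-F1 pair, 0.012 and 0.0345 in the B16-F1R2 pair, and 0.108 and 0.0315 in that of B16-F1R2L, which is at most about 11 reads. Both B16-F1R2 libraries lay below both B16-F1 libraries, and the B16-F1R2L libraries lay on either side of those of B16-F1 and overlapped those of B16-F1R2. Fitted with no filter on low values, the differences from B16-F1 were -0.52 (adjusted p = 0.181) and -0.09 (adjusted p = 0.825) and were not called. Of the summed FPKM of the 3 receptors, Notch2 took 91.9% and 88.7% in the B16-F1 libraries. It took 82.9% and 83.8% in those of B16-F1R2 and 85.2% and 85.7% in those of B16-F1R2L. Within a library, the level of Notch2 was 13.3 and 8.85 times that of Notch1 in B16-F1, 4.88 and 5.29 times in B16-F1R2, and 6.34 and 6.18 times in B16-F1R2L. The ratio was thus highest in both B16-F1 libraries and lowest in both B16-F1R2 libraries.

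The Jagged ligands changed in opposite directions in B16-F1R2L against B16-F1, and in B16-F1R2 Jag2 rose while Jag1 was not called; after quantile normalization, Jag2 was called in neither. Jag2 (chr12:114146801-114167706, minus strand, 26 exons), a ligand known from limb and craniofacial development, measured 0.698 and 0.442 FPKM in the B16-F1 pair, 1.35 and 1.27 in the B16-F1R2 pair, and 1.26 and 1.42 in that of B16-F1R2L. The 2 B16-F1 libraries were the lowest and differed from each other more than the libraries of the other lines did. Means were 0.57 ± 0.181, 1.31 ± 0.0563 and 1.34 ± 0.113 FPKM (SD, n = 2 each). Jag2 was 1.10 higher on the log2 scale in B16-F1R2 (0.54 to 1.65, limma adjusted p = 0.00725) and 1.13 higher in B16-F1R2L (0.58 to 1.69, limma adjusted p = 0.00641) than in the B16-F1 line. They were 0.56 and 0.58, both still called, with a pseudocount of 1. Quantile normalization ended both calls, at 0.31 (adjusted p = 0.248) and 0.04 (adjusted p = 0.876).

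Jag1 (chr2:136907192-136942380, minus strand, 26 exons), the ligand whose mutation is known as a cause of Alagille syndrome, measured 1.51 and 1.57 FPKM in the B16-F1 pair, 1.09 and 1.25 in the B16-F1R2 pair, and 0.956 and 0.926 in that of B16-F1R2L. The 3 lines did not overlap, with B16-F1 highest and B16-F1R2L lowest. Jag1 was 0.65 lower on the log2 scale in B16-F1R2L than in the B16-F1 line (interval of the difference -1.03 to -0.28, limma adjusted p = 0.0124), a call that was lost without B16-F1 replicate 2 (-0.63, adjusted p = 0.0532). With a pseudocount of 1 it was -0.39 and stayed called. The difference between B16-F1R2 and B16-F1 was -0.37 (-0.75 to 0.01, limma adjusted p = 0.0891) and did not pass the threshold. It passed when limma was run without a trend (adjusted p = 0.0128) and after quantile normalization (-0.84, adjusted p = 0.0125).

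Set against each other within a library, which no rescaling of a whole library can change, Jag1 was 2.16 and 3.54 times as abundant as Jag2 in B16-F1. In B16-F1R2 it was 0.811 and 0.984 times as abundant, and in B16-F1R2L 0.757 and 0.65 times. Every B16-F1 library thus had more Jag1 than Jag2, and every library of the metastatic lines had less, although 1 of the B16-F1R2 libraries was close to equality. The smallest two-sided p that an exact permutation test could give such a ratio here is 0.333 (n = 2 against 2), and none was run. The summed level of the 3 ligands was 2.04 to 2.52 FPKM across the 6 libraries, with 2.25 and 2.04 in the B16-F1 pair, 2.49 and 2.52 in the B16-F1R2 pair, and 2.22 and 2.35 in that of B16-F1R2L, so that the sum in B16-F1R2L overlapped that in B16-F1. Jag1 made up 66.9% and 77.0% of it in B16-F1, and Jag2 made up 50.4% to 60.6% in the other libraries.

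**Figure D2:**
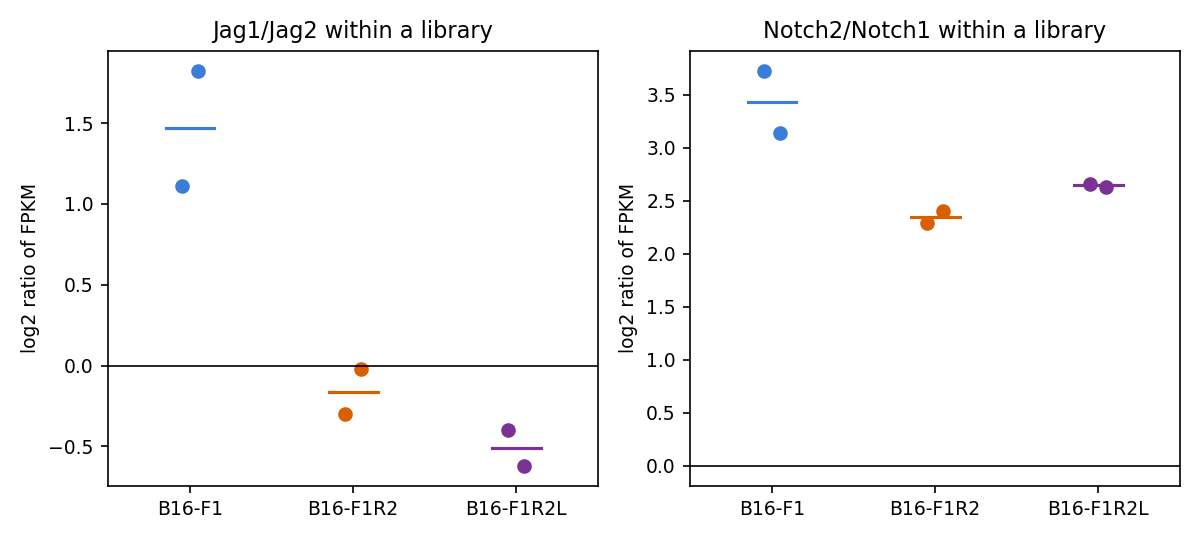
Log2 ratios of FPKM within each library (y axes) for Jag1 over Jag2 and for Notch2 over Notch1, by line; points are libraries, bars are means and the line at 0 marks equal levels. Jag1 over Jag2 lies at 1.11 and 1.83 in B16-F1 and between -0.62 and -0.02 in the other 4 libraries, while Notch2 exceeds Notch1 in all 6 libraries.

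Dll1 (chr17:15504318-15513836, minus strand), a Delta-like ligand known from somite formation, was at 0.049 and 0.0255 FPKM in the B16-F1 pair, at 0.0482 and 0 in that of B16-F1R2, and listed at 0 in both B16-F1R2L libraries. The values above 0 stand for about 1.1 to 2.3 reads. Fitted with no filter, Dll1 was called in no comparison (adjusted p = 0.606 and 0.18 against B16-F1).

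Among the targets, Hes1 was lower in both metastatic lines, and the other 3 were near or at 0. Hes1 (chr16:30064470-30067882, plus strand, 4 exons) encodes a basic helix-loop-helix repressor, a classical direct target of the Notch intracellular domain. Its level was 1.45 and 1.56 FPKM in the B16-F1 pair, 0.363 and 0.515 in the B16-F1R2 pair, and 0.353 and 0.875 in that of B16-F1R2L. Both B16-F1 libraries lay above the other 4, and B16-F1R2L replicate 2 stood between B16-F1 and the rest. Means were 1.51 ± 0.0793, 0.439 ± 0.107 and 0.614 ± 0.369 FPKM (SD, n = 2 each), which stands for about 27 and 28 reads in B16-F1 and for 6.8 to 18 reads elsewhere. Hes1 was 1.59 lower on the log2 scale in B16-F1R2 than in the B16-F1 line (interval of the difference -2.51 to -0.67, limma adjusted p = 0.0125), and 1.27 lower in B16-F1R2L (-2.20 to -0.35, limma adjusted p = 0.0285). With a pseudocount of 1 the differences were -0.80 and -0.66 and stayed called.

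The direction of the Hes1 difference from B16-F1 held in each alternative run, but its call rested on few reads. Without B16-F1R2L replicate 1 the difference from B16-F1 shrank to -0.72 (adjusted p = 0.0754), and it also missed the threshold without B16-F1 replicate 1 (-1.32, adjusted p = 0.0861), without B16-F1 replicate 2 (-1.22, adjusted p = 0.107) and with no filter on low values (adjusted p = 0.0572). For B16-F1R2 against B16-F1 it missed the threshold without B16-F1 replicate 2 (-1.54, adjusted p = 0.0592) and without B16-F1R2 replicate 1 (-1.39, adjusted p = 0.0691).

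Hey1 (chr3:8663362-8667039, minus strand), which encodes a related repressor known from heart and vessel development, was at 0.121 and 0.0834 FPKM in the B16-F1 pair, at 0 and 0.0372 in that of B16-F1R2, and listed at 0 in both B16-F1R2L libraries. Its values stand for at most about 3.4 reads, with both B16-F1 libraries above the rest. Fitted with no filter on low values, over 16483 genes, Hey1 was 0.78 lower in B16-F1R2 (adjusted p = 0.0343) and 1.01 lower in B16-F1R2L (adjusted p = 0.0152), sizes that depend on the pseudocount of 0.1. That fit called 19.3% of all genes lower and 21.3% higher in B16-F1R2, and 19% lower and 23.2% higher in B16-F1R2L. The p-values for Hey1 do not reflect the counting noise of so few reads. Heyl (chr4:122910799-122927118, plus strand), another Hey family repressor, was listed at 0 in 5 libraries and at 0.0155 FPKM in B16-F1R2 replicate 1, which is about 1 read. Nrarp (chr2:25036278-25038850, plus strand, 1 exon), the feedback inhibitor, was listed at 0 in all 6 libraries.

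Read over the tested genes, 3 of 5 were called higher and 1 lower in B16-F1R2 against B16-F1, where 28.2% of all tested genes were called higher and 27.2% lower. In B16-F1R2L against B16-F1, 3 were higher and 2 lower, beside 29.5% and 27.1% of all tested genes. A large share of all genes was called, and 3 of the 5 entered only through the lines in which they were high. Jag1 likewise passed through B16-F1 and B16-F1R2, and was under 1 FPKM in both B16-F1R2L libraries. These counts therefore say nothing about Notch genes as a group. The median log2 difference of the 5 genes was 0.36 and 0.30 in these comparisons, beside 0.005 and 0.017 over all tested genes. This median is the value of Notch2 alone. It comes from genes selected in the same way and says nothing about the group either. Both comparisons share the B16-F1 libraries, so that their results are not independent of each other.

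**Figure D3:**
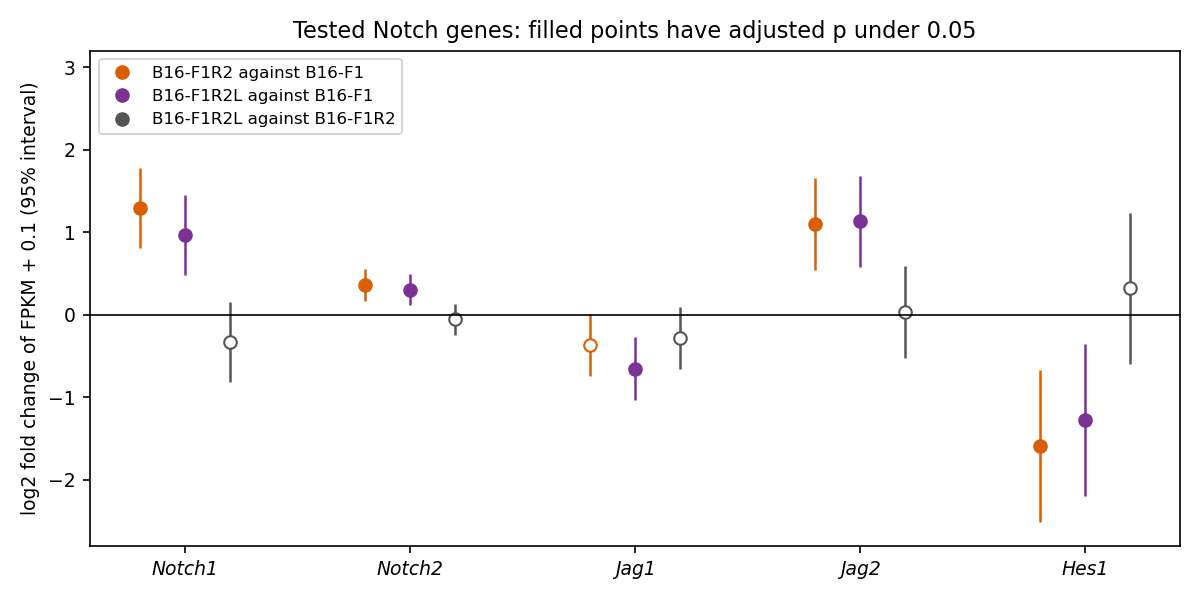
Log2 fold changes of FPKM + 0.1 (y axis) with 95% intervals from limma for the 5 tested Notch genes in each of the 3 comparisons; filled points have an adjusted p under 0.05. Notch1, Notch2 and Jag2 lie above 0 and Hes1 and Jag1 below 0 against B16-F1 (Notch1 in B16-F1R2L only without quantile normalization), and all 5 intervals between the metastatic lines include 0.

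Between the metastatic lines, 0 of the 5 genes were called in the limma fit in either direction and none had an unadjusted p under 0.05, beside 12.1% of all tested genes called higher and 10.5% lower in B16-F1R2L against B16-F1R2. A missed threshold does not show equal levels. After quantile normalization, Notch1 and Jag1 were called lower in B16-F1R2L, 2 of the 5, beside 1132 lower and 1110 higher of all 11379 tested genes. In the limma fit without it, the intervals ran from -0.82 to 0.15 for Notch1, from -0.25 to 0.13 for Notch2, from -0.66 to 0.09 for Jag1, from -0.52 to 0.59 for Jag2 and from -0.60 to 1.24 for Hes1. For Notch1 and Jag1, both B16-F1R2L libraries lay below both B16-F1R2 libraries, whereas Notch2, Jag2 and Hes1 overlapped.

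One scaling changed the picture. Quantile normalization, which forces the same distribution on every library, shrank the higher calls of Notch1, Notch2 and Jag2 as given with each gene, and turned Notch1 in B16-F1R2L (adjusted p = 0.0684). It enlarged the lower ones, with Jag1 at -1.89 (adjusted p = 0.00051) in B16-F1R2L, and Hes1 at -2.62 (adjusted p = 0.00216) in B16-F1R2 and -2.45 (adjusted p = 0.00279) in B16-F1R2L. Between the metastatic lines it gave calls for Notch1 (-0.98, adjusted p = 0.0199) and Jag1 (-1.05, adjusted p = 0.0179), both lower in B16-F1R2L. The libraries differed in their number of low genes, whose part in these changes was not tested: 805 to 809 tested genes were under 1 FPKM in the B16-F1 libraries, 416 to 442 in those of B16-F1R2 and 275 to 279 in those of B16-F1R2L. Rescaling each library to a sum of 1000000 left every call of the 5 genes against B16-F1 in place, but moved the median over all tested genes to 0.118 in B16-F1R2L against B16-F1 and to 0.129 against B16-F1R2. The share of all calls that were higher then went from 52.1% to 66.6% and from 53.7% to 81.0%.

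Sorted by level, Notch2 came first in every line. In B16-F1 it was followed by Jag1 and Hes1, which overlapped, then by Jag2 and Notch1, which overlapped as well, and then by Hey1, Notch3 and Dll1. In B16-F1R2 the order was Notch2, Notch1, Jag2, Jag1 and Hes1, none of which overlapped its neighbour, followed by the genes near 0. In B16-F1R2L, Jag2 stood above Notch1, then came Jag1, Hes1 and Notch3, and the other 4 genes were at 0. Hes1 thus ranked beside the most abundant ligand in B16-F1 and below both Jagged ligands in the metastatic lines.

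These were bulk libraries, in which fewer cells of a type and less RNA per cell cannot be told apart. A few markers of other cell types that use Notch differed in level between the lines too. The summed level of 7 endothelial markers was 0.0875 to 0.144 FPKM in B16-F1, 1.87 to 2.08 in B16-F1R2 and 2.85 to 3.41 in B16-F1R2L, nearly all of it Pecam1 (0 in B16-F1, 0.752 to 1.26 elsewhere) and Vwf (0.0875 to 0.144 and 1.11 to 2.15), with Cdh5, Kdr, Tek and Tie1 listed at 0 in all 6 libraries. That of 7 leukocyte markers was 0.17 to 0.684, 13.6 to 13.7 and 17.4 to 19.1 FPKM, most of it in the metastatic lines from 1 gene, Cd79a (12.4 to 17.1), with Lyz2 at 0.916 to 2.05 there and Ptprc, Cd3e, Itgam and Adgre1 at 0 in every library. The 7 fibroblast or mural and the 6 lung epithelial markers each summed to less than 1 FPKM in every library. The part of these other markers in the Notch results was not tested.

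The other genes of the pathway, a list of 65 chosen by function, were of interest for where in the pathway the lines differed. Of the 49 that passed the filter, 19 (38.8%) fell and 9 (18.4%) rose between B16-F1 and B16-F1R2, with a median log2 difference of -0.07. In B16-F1R2L, 9 (18.4%) were higher and 16 (32.7%) lower, with the same rounded median of -0.07. These shares stand beside 28.2% and 27.2%, and 29.5% and 27.1%, of all tested genes, and no test of the list was made. Without B16-F1 replicate 2, 4 were higher in B16-F1R2 and 9 lower in B16-F1R2L, and without B16-F1 replicate 1 or B16-F1R2L replicate 2, 5 were higher in B16-F1R2L. Calls over all genes fell in the same fits, from 3207 to 2480 higher in B16-F1R2, from 3086 to 2145 lower in B16-F1R2L, and from 3361 to 2665 and 2716 higher in B16-F1R2L.

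The role with the most lower calls was that of the proteases that cut the receptor and their subunits. Of 10 tested, 6 were lower and 1 higher in B16-F1R2, and 5 were lower and 1 higher in B16-F1R2L, beside the 27.2% and 27.1% of all tested genes called lower and the 28.2% and 29.5% called higher. Psen2, a catalytic subunit of γ-secretase, was at 205 and 214 FPKM in the B16-F1 pair, 108 and 99.2 in the B16-F1R2 pair, and 139 and 139 in that of B16-F1R2L. Its level was 1.02 lower on the log2 scale in B16-F1R2 (limma adjusted p = 2.3e-05) and 0.60 lower in B16-F1R2L (limma adjusted p = 0.000202), and B16-F1R2L lay 0.42 above B16-F1R2 (limma adjusted p = 0.00667). Aph1c, a scaffold subunit, showed the same order, with 18.7 and 17.9, 7.37 and 7.73, and 11.5 and 12.1 FPKM in the 3 lines. It was 1.27 lower in B16-F1R2 than in the B16-F1 line (limma adjusted p = 1.95e-05). Its paralog Aph1b, at 2.16 to 3.35 FPKM, was higher in both metastatic lines, and since the sequences of these paralogs are nearly identical and the assignment of shared reads is not given, the split between them is uncertain.

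Ncstn and Aph1a, further subunits of γ-secretase, were lower in both metastatic lines, by 0.25 and 0.44 on the log2 scale in B16-F1R2 and by 0.18 and 0.38 in B16-F1R2L. Furin, which cuts the receptor during its maturation, was lower in both lines (limma adjusted p = 0.00579 and 0.0438), the second call being lost with no filter (adjusted p = 0.0656). For Adam10 and Adam17, the proteases of the first activating cut, the intervals of the differences from B16-F1 lay between -0.23 and 0.29 and no call was made.

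In the cell that sends the signal, ligands are taken up with the help of ubiquitin ligases and epsins. Epn1, an epsin, was 0.82 and 0.73 lower on the log2 scale in B16-F1R2 and B16-F1R2L than in the B16-F1 line (limma adjusted p = 0.000112 and 0.000181). The other epsin, Epn2, was 0.19 higher in B16-F1R2L than in the B16-F1 line (limma adjusted p = 0.0199) and 0.24 higher than in B16-F1R2 (limma adjusted p = 0.0227). Mib2, a ubiquitin ligase that acts on ligands, was 0.29 lower in B16-F1R2 (limma adjusted p = 0.0134) and 0.45 higher in B16-F1R2L (limma adjusted p = 0.00227), with 6.28 and 6.10 FPKM in the B16-F1 pair, 4.90 and 5.18 in the B16-F1R2 pair, and 8.46 and 8.56 in that of B16-F1R2L. Its difference between the metastatic lines, 0.75, passed the test as well (limma adjusted p = 0.00338). Numb, which lowers receptor levels at the cell surface, was higher in all 3 comparisons, by 0.35, 0.72 and 0.37, with 7.93 and 7.70 FPKM in the B16-F1 pair, 10.0 and 9.88 in the B16-F1R2 pair, and 12.6 and 13.3 in that of B16-F1R2L.

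In the nucleus, Rbpj, the DNA-binding partner of the receptor, was at 9.7 to 12.6 FPKM in all libraries. It was 0.24 higher in B16-F1R2L than in the B16-F1 line (limma adjusted p = 0.0345, lost at 0.0518 with no filter on low values), while the difference between B16-F1R2 and B16-F1, 0.12 (-0.06 to 0.31), was not called. The coactivators of the Mastermind-like family went different ways. Maml2 was 1.51 and 1.58 FPKM in the B16-F1 pair, 4.41 and 4.23 in the B16-F1R2 pair, and 4.42 and 4.91 in that of B16-F1R2L, a rise of 1.43 and 1.54 on the log2 scale (limma adjusted p = 8.3e-05 and 5.98e-05). Maml1 and Maml3 were lower in both metastatic lines, by 0.33 and 0.49 in B16-F1R2 and by 0.29 and 0.65 in B16-F1R2L. With no filter, Maml3 in B16-F1R2 (adjusted p = 0.0815) and Maml1 in B16-F1R2L (adjusted p = 0.0636) were not called. Of the 11 corepressors tested, 3 were higher and 3 lower in B16-F1R2, and 0 were higher and 4 lower in B16-F1R2L, where the counts in B16-F1R2 (27.3% each) were near the 28.2% and 27.2% of all tested genes and the B16-F1R2L counts stand beside 29.5% and 27.1%. Ctbp1 was lower in both, by 0.52 and 0.64.

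Other Hes genes and other genes that have been reported as Notch targets went in both directions. Hes7, a repressor known from the segmentation clock, was at 0.312 and 0.161 FPKM in the B16-F1 pair, 1.42 and 1.47 in the B16-F1R2 pair, and 2.72 and 2.74 in that of B16-F1R2L. It was higher in both metastatic lines, by 2.23 (limma adjusted p = 0.000474) and 3.11 (limma adjusted p = 0.000116), and higher in B16-F1R2L than in B16-F1R2 (0.88, limma adjusted p = 0.0474, lost at 0.0916 with no filter). Like Notch1 and Jag2, it passed the filter only through the metastatic lines. Hes6 was lower in both, by 0.53 and 0.60, from 28.4 and 24.0 FPKM in B16-F1.

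Myc, a growth-promoting transcription factor, was at 17.3 and 18.0 FPKM in the B16-F1 pair, 34.7 and 42.1 in the B16-F1R2 pair, and 40.9 and 36.0 in that of B16-F1R2L, which is 1.11 and 1.12 higher on the log2 scale (limma adjusted p = 0.000241 and 0.000238). Ccnd1, which encodes cyclin D1, was at 64.5 and 63.7, 33.9 and 33.2, and 22.1 and 21.4 FPKM. It was 0.93 lower in B16-F1R2 (limma adjusted p = 1.43e-05), 1.56 lower in B16-F1R2L (limma adjusted p = 1.98e-06), and lower in the second than in the first. Snai2, a regulator of neural crest and mesenchymal states, was 1.16 lower in B16-F1R2 than in the B16-F1 line (limma adjusted p = 0.000748) while B16-F1R2L differed from B16-F1 by -0.27 (adjusted p = 0.144, not called), with B16-F1R2L 0.89 above B16-F1R2 (limma adjusted p = 0.011). Between the metastatic lines, 9 (18.4%) of the 49 pathway genes were higher and 3 (6.12%) lower in B16-F1R2L, beside 12.1% and 10.5% of all tested genes, with a median of 0.07 beside 0.022 over all tested genes. Without B16-F1R2 replicate 1 or B16-F1R2L replicate 2, 3 were higher, and without B16-F1R2 replicate 2, 5. Without B16-F1R2 replicate 2 or either B16-F1R2L replicate, 1 was lower. Over all genes the 1378 higher calls fell in the same fits to 297, 329 and 628, and the 1190 lower calls to 608, 991 and 210.

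**Figure D4:**
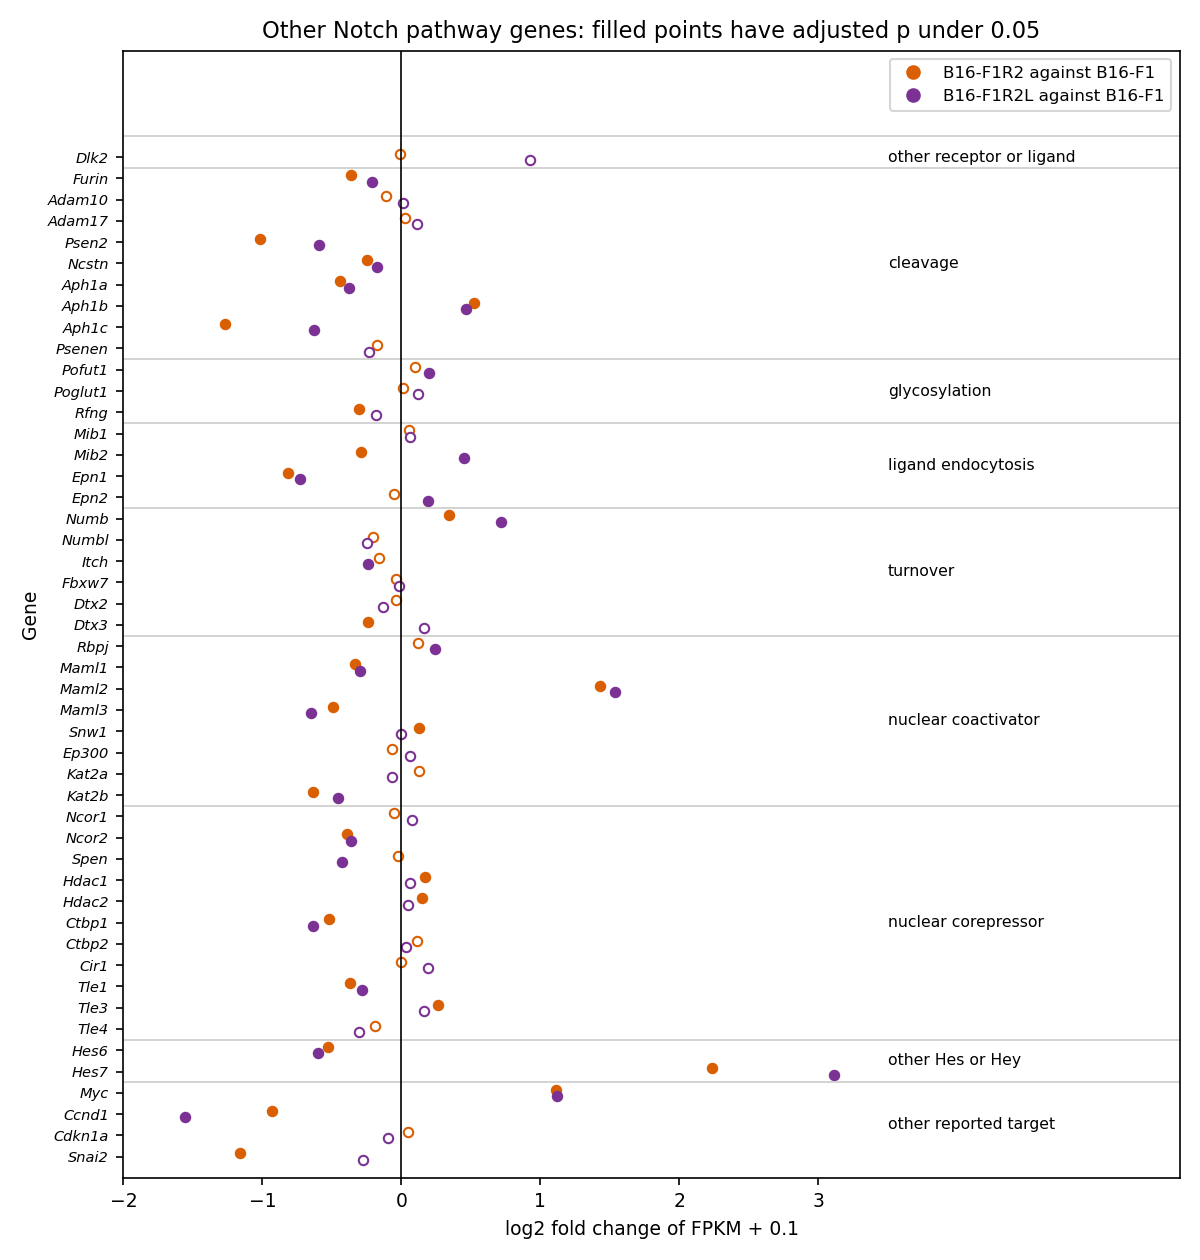
Log2 fold changes of FPKM + 0.1 (x axis) of 48 of the 49 tested genes of the pathway list, by role, for both metastatic lines against B16-F1; filled points have an adjusted p under 0.05 in limma. Psen2, Aph1c and Ccnd1 lie to the left, and Maml2, Hes7 and Myc to the right.

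For the receptor, ligand and target with the widest span between line means, the genes most like them over the 6 libraries were found by the mean absolute difference of log2 values after each gene was centred on its own mean. Nearest to Notch1 were Loxl2 (0.0761, r = 0.996 over 6 libraries), a lysyl oxidase, and Cxcr2 (0.0796, r = 0.99), a chemokine receptor. Nearest to Jag2 were Cep290 (0.073, r = 0.987), a ciliary protein gene, and Cdc42ep2 (0.0869, r = 0.983). Nearest to Hes1 were Gsta1 (0.119, r = 0.987), a glutathione transferase gene with close paralogs whose reads can be shared, and Fgf1 (0.206, r = 0.97). These are the nearest of 11379 genes over libraries that fall into 3 lines, and they are given as a description only.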

How the data were processed

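Total RNA of 3 mouse melanoma lines (2 libraries each) was made into stranded polyA libraries and sequenced by the authors in single-end reads. Per the submitters' processing notes, TopHat2 2.0.10, Bowtie 1.0.0, SAMtools 0.1.1.9 and Cuffnorm were used with mm9. The authors deposited FPKM in 1 table, not pooled over replicates. The gene annotation and the assignment of shared reads are not given in the sources used here. The authors used DESeq2 on counts, and no count test was run here since FPKM are not counts.

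FPKM were transformed to log2(FPKM + 0.1) and a gene was kept when 2 or more libraries reached 1 FPKM (11379 of 23951). Lines were compared over all 6 libraries with the limma package (3.58.1, R 4.3.3), using lmFit, contrasts.fit and a trended eBayes, and p-values were adjusted by Benjamini-Hochberg over all tested genes with a threshold of 0.05. The steps were tested on simulated data. Depth was estimated from the FPKM steps of single-transcript genes, so read numbers are approximate and carry no intervals. Gene positions came from GENCODE vM1 on NCBIM37 (mm9), and sequence was searched for stretches of 50 bases shared with other coding transcripts, of which the 10 genes had 0. Python 3.11.15 with pandas 2.3.3, numpy 2.4.6 and matplotlib 3.10.9 served for the rest.

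The genes, the pathway list and the marker lists were chosen with earlier results of these data known. Named pathway genes were those called whose log2 fold change reached 1 in size in any comparison, plus genes a role's description needed. The within-library ratios were chosen after the values had been seen. Alternatives were other pseudocounts, filters and scalings, no trend, only the 4 libraries compared, a replicate block, and each library left out in turn. Protein and animal data were not analysed here, and 1 pathway gene that counts in the totals is not reported here by name.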

Additional observations from a re-analysis of the deposited data

How the results depend on the processing

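Of 228 values of the 5 tested Notch genes under alternatives, 202 kept their direction and their side of the threshold. With the sign kept, 16 lost and 4 gained a call, and another 6 changed sign. The sign changed for Notch1 in B16-F1R2L against B16-F1 under quantile normalization (-0.49), where the call was lost as well (limma adjusted p = 0.0684). Between the metastatic lines, where no member was called, it changed for Notch2 after rescaling to 1000000 (0.051), for Jag2 under quantile normalization (-0.26) and with libraries left out (range -0.047 to 0.114), and for Hes1 with libraries left out (range -0.235 to 0.871). Of the member counts, a filter of 5 FPKM left only Notch2, with 1 gene higher and 0 lower in both comparisons with B16-F1. Over all 8962 genes left by that filter, 2468 were higher and 2750 lower in B16-F1R2, and 2432 higher and 2827 lower in B16-F1R2L. Quantile normalization gave 1 higher and 2 lower in B16-F1R2, 0 higher in B16-F1R2L, and 2 lower in B16-F1R2L against B16-F1R2. Over all 11379 genes it gave 2919 higher and 3370 lower in B16-F1R2, 2857 higher in B16-F1R2L, and 1132 lower between the metastatic lines. In B16-F1R2 against B16-F1, 2 members were lower without a trend and 2 without a filter, beside 2943 of 11379 and 3189 of 16483 genes. With libraries left out, 0 to 1 members were lower in B16-F1R2 (0 without B16-F1 replicate 2 or B16-F1R2 replicate 1) and 0 to 2 in B16-F1R2L against B16-F1 (0 without B16-F1 replicate 2). The pathway genes higher were then 4 to 9 in B16-F1R2, 5 to 8 in B16-F1R2L and 3 to 7 between the metastatic lines. Those lower were 9 to 18 in B16-F1R2L against B16-F1 and 1 to 2 between the metastatic lines, where rescaling to 1000000 gave 1. The cause was not tested. A lone library left in a line was assumed to vary like the other lines.

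Samples with the same replicate number did not deviate together (correlations 0.05, -0.10 and 0.08), so the numbers were not used as pairs. These correlations do not exclude that libraries of the same number were prepared together. A replicate block left the counts of members called as they were, 3 higher and 1 lower in B16-F1R2 and 3 higher and 2 lower in B16-F1R2L against B16-F1. Notch3, Dll1, Hey1, Heyl and Nrarp rest on at most about 11 reads in any library, which limits the differences that could be seen in them.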

Other observations

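Of the 65 pathway genes, 16 were too low for the main test, and 15 of these were fitted when limma was run without a filter on all 16483 genes above 0 in any library. Of the 15, 2 were called higher and 3 lower in B16-F1R2 against B16-F1, beside 21.3% and 19.3% of all genes, and 3 higher and 4 lower in B16-F1R2L against B16-F1, beside 23.2% and 19%. They stand for few reads, and the sizes depend on the pseudocount of 0.1. Lines with both libraries at 0 show no spread, so the p-values do not reflect the counting noise of so few reads. Mfng, a fringe enzyme that adds a sugar to the receptor and so changes which ligand it answers to, was at 0.0579 and 0 FPKM in the B16-F1 pair, 0.401 and 0.326 in the B16-F1R2 pair, and 0.568 and 0.837 in that of B16-F1R2L. It was 1.88 higher on the log2 scale in B16-F1R2 (adjusted p = 0.00756) and 2.65 higher in B16-F1R2L (adjusted p = 0.00248) than in the B16-F1 line. Lfng, another fringe enzyme, was at 0.173 and 0.0908, 0.801 and 0.319, and 0.461 and 0.326 FPKM, all 4 metastatic libraries above both of B16-F1, and missed the threshold (adjusted p = 0.0519 and 0.102). The third fringe gene, Rfng, at 12.3 to 15.2 FPKM in the line means, missed the threshold in B16-F1R2 in the same fit without a filter (adjusted p = 0.0719) and was called lower there in the fit with the filter (adjusted p = 0.0388).

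The products of deltex genes bind the receptor inside the cell. The abundant Dtx2, at 8.4 to 10.0 FPKM, was called in no comparison, and Dtx3, at 18.6 to 27.4 FPKM, was called in none without a filter (adjusted p = 0.085 for B16-F1R2 and 0.2 for B16-F1R2L against B16-F1, and 0.0517 between the metastatic lines). In the fit with the filter Dtx3 was called lower in B16-F1R2 against B16-F1 (adjusted p = 0.0491) and higher in B16-F1R2L against B16-F1R2 (adjusted p = 0.0223). Of the low members, Dtx4 was at 0.339 and 0.329 FPKM in B16-F1, at 0 for both of B16-F1R2, and at 0.0259 and 0.0115 for B16-F1R2L (adjusted p = 0.000484 and 0.000656). Dtx1 was listed at 0 in both B16-F1 libraries, and measured 0.157 and 0.147 FPKM in the B16-F1R2 pair and 0.149 and 0.0818 in that of B16-F1R2L (adjusted p = 0.00515 and 0.00976). Neurl1b, a ubiquitin ligase for ligands, was at 0.40 and 0.405 FPKM in the B16-F1 pair, 0.119 and 0.0383 in the B16-F1R2 pair, and 0.095 and 0.0486 in that of B16-F1R2L (adjusted p = 0.011 and 0.0102). Hey2, a target gene of the Hey family, was at 0.116 and 0.0908 FPKM in the B16-F1 pair, 0.0281 and 0 in that of B16-F1R2, and listed at 0 in both B16-F1R2L libraries (adjusted p = 0.0159 and 0.00854). Of the ligand genes, Dll4 was at 0.0501 and 0.0431 FPKM in the B16-F1R2L pair and at 0 elsewhere (adjusted p = 0.017 against B16-F1). Dner was at 0.049 and 0.154 FPKM in the B16-F1 pair and at 0 for both of B16-F1R2L (adjusted p = 0.0492). In the B16-F1R2 pair it was at 0.0239 and 0 FPKM and was not called (adjusted p = 0.0824). These genes were chosen after their values were seen.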
